A study of Mus musculus with 6 samples.

Results

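The immunity-related GTPases (IRG proteins) studied here were 7 genes, Igtp, Irgm1, Irgm2, Ifi47, Iigp1, Tgtp1 and Tgtp2. They were selected by family membership with results of the knockout comparison already known, so their levels in knockout and wild-type marrow are given as a description. Where they stand in the fit across all genes is stated as part of that description, and nothing is concluded from it. All 7 were found among the 46603 genes of the count files, and 6 of them were among the 15069 genes that passed the low-count filter. The study sequenced RNA of whole bone marrow. Of the 6 mice, 3 lacked nuclear myosin 1 (the NM1 KO group) and 3 were wild-type animals (the NM1 WT group), all on a C57/Bl6 background and 8 months old. Nuclear myosin 1 is an isoform of the motor protein encoded by Myo1c that carries extra amino-terminal residues and is found in the nucleus. Every library came from the long-bone marrow of 1 mouse, with no sorting of cells. Mice of both groups share the strain label, the labels name no treatment, and the number of backcrosses behind the knockout is not given in the sources used here.

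IRG proteins are GTPases that interferon-gamma induces strongly in mouse cells and that act in cell-autonomous defence against vacuolar pathogens such as Toxoplasma and Chlamydia. Effector members load onto the membrane of the pathogen's vacuole and help to break it, whereas regulatory members sit on the cell's own membranes and hold the effectors in their inactive form. In marrow, Irgm1 is also known for its role in blood stem cells, since mice that lack it lose stem cell function under interferon-gamma.

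Regulators and effectors differ in 1 residue of the nucleotide-binding P-loop, methionine in the regulators (the GMS class) and lysine in the effectors (the GKS class). The 8 codons of this loop are shown because they place each member in its class. They were read from GENCODE M21 transcripts (GRCm38), 5′ to 3′, with the codon of the class-defining residue in capitals:

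Igtp, codons 91 to 98 of 423: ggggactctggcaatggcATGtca
Irgm1, codons 83 to 90 of 409: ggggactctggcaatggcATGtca
Irgm2, codons 83 to 90 of 407: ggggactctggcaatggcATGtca
Ifi47, codons 81 to 88 of 420: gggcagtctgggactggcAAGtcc
Tgtp1, codons 63 to 70 of 415: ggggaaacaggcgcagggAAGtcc
Tgtp2, codons 63 to 70 of 415: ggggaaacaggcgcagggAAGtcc

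The 3 regulators had the same letters at all 24 bases of the loop. Tgtp1 and Tgtp2 were also alike there, and 99.7% of their aligned coding bases were identical, so reads of this pair can hardly be assigned to 1 copy. Igtp and Irgm2 shared 71.8% of aligned coding bases, Igtp and Irgm1 68.5%, and Irgm1 and Irgm2 65.8%. Between a regulator and an effector the identity was 53.7% to 59.3%. Iigp1 was in the GKS class too.

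Since the members that differed between genotypes lie side by side, the start regions are shown as well. The 120 bases before the RefSeq start of each gene (GRCm38.p6) are written 5′ to 3′ on the gene's own strand. Capitals mark the letters of a gamma-activated site (GAS), searched as TTCNNNGAA, and of an interferon-stimulated response element (ISRE), searched as GAAANNGAAA, on both strands. Promoters of 6 of the 7 members were matched by symbol:

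Igtp, chr11:58199436-58199555, plus strand: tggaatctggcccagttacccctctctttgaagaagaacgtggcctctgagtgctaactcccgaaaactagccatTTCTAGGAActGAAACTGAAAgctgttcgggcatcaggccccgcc
Irgm2, chr11:58214857-58214976, plus strand: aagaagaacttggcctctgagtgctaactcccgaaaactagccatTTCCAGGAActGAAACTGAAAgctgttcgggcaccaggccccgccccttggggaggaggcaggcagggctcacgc
Irgm1, chr11:48871421-48871540, minus strand: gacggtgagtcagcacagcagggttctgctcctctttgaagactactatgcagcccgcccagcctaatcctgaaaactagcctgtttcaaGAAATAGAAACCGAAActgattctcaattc
Tgtp1, chr11:48992247-48992366, minus strand: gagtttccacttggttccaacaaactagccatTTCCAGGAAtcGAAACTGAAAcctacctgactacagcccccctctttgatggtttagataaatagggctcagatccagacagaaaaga
Tgtp2, chr11:49064213-49064332, minus strand: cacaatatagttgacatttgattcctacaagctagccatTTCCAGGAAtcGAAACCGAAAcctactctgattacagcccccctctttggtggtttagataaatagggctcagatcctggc
Ifi47, chr11:49076467-49076586, plus strand: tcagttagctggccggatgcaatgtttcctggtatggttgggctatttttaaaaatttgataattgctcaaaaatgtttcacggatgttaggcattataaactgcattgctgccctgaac

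In the 300 bases from 250 before to 50 after the start, Igtp, Irgm2, Tgtp1 and Tgtp2 each held a GAS followed closely by an ISRE. The GAS of Igtp began 45 bases upstream of the start and its ISRE 34 bases upstream. In Irgm2 the same pair began 75 and 64 bases upstream, in Tgtp1 88 and 77, and in Tgtp2 81 and 70. Irgm1 held no GAS in this window and 2 ISRE matches that overlap each other, at 30 and 24 bases upstream. The window of Ifi47 held neither string of letters. It covered the RefSeq start shown above, while 5 transcripts of Ifi47 are annotated, and any other start was not searched. Of 32851 promoter windows of the same length, 8.3% held a GAS, 3.44% an ISRE and 0.454% both. These matches describe letters, and binding was not measured. The windows of Igtp and Irgm2 aligned over 265 bases with 92.1% identity, and those of Tgtp1 and Tgtp2 over 161 bases with 91.9%.

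On chromosome 11 the genes form a pair and a separate group, all of them away from Myo1c (chr11:75650504-75673910). Igtp (ENSMUSG00000078853, chr11:58199556-58207591) and Irgm2 (ENSMUSG00000069874, chr11:58199618-58222782) lie on the plus strand, 17.4 Mb from Myo1c. Irgm1 (ENSMUSG00000046879, chr11:48861968-48871683), Tgtp1 (ENSMUSG00000078922, chr11:48985327-48994172) and Tgtp2 (ENSMUSG00000078921, chr11:49057194-49064206) are on the minus strand, and Ifi47 (ENSMUSG00000078920, chr11:49076587-49096974) is on the plus strand. These genes lie 26.6 to 26.8 Mb from Myo1c.

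Iigp1 (ENSMUSG00000054072) is the 1 member elsewhere, on chromosome 18 at 60376027 to 60392634.

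The annotations of Igtp and Irgm2 overlap, which bears on how their reads are counted. The gene spans share 7974 bases on the same strand, because 1 of the 3 annotated Irgm2 transcripts begins at base 58199618, inside the first exon of Igtp, and splices to the last exon of Irgm2. The other Irgm2 transcripts begin at 58215028 and 58215008, beyond the end of Igtp. Exons of both genes coincide over 162 bases (chr11:58199618-58199779), which make up 8.01% of the exon length of Igtp and 4.39% of that of Irgm2. Of all 50-base stretches in Igtp transcripts, 11.8% also occur in Irgm2 transcripts, and 6.79% of those of Irgm2 occur in Igtp. The sources used here give neither the counting mode nor the strand setting, so reads from the shared exon could have been dropped or assigned to either gene. The other members had smaller or different overlaps. Ifi47 shared 111 exon bases with Olfr56 on its own strand and 106 with the antisense Gm12188, and Tgtp1 shared 223 with Gm12185. Of the 50-base stretches of Tgtp1, 81.2% occur in another gene, and of those of Tgtp2 86.6%, against 0.379% for Irgm1, 4.81% for Ifi47 and 1.69% for Iigp1.

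**Figure D1:**
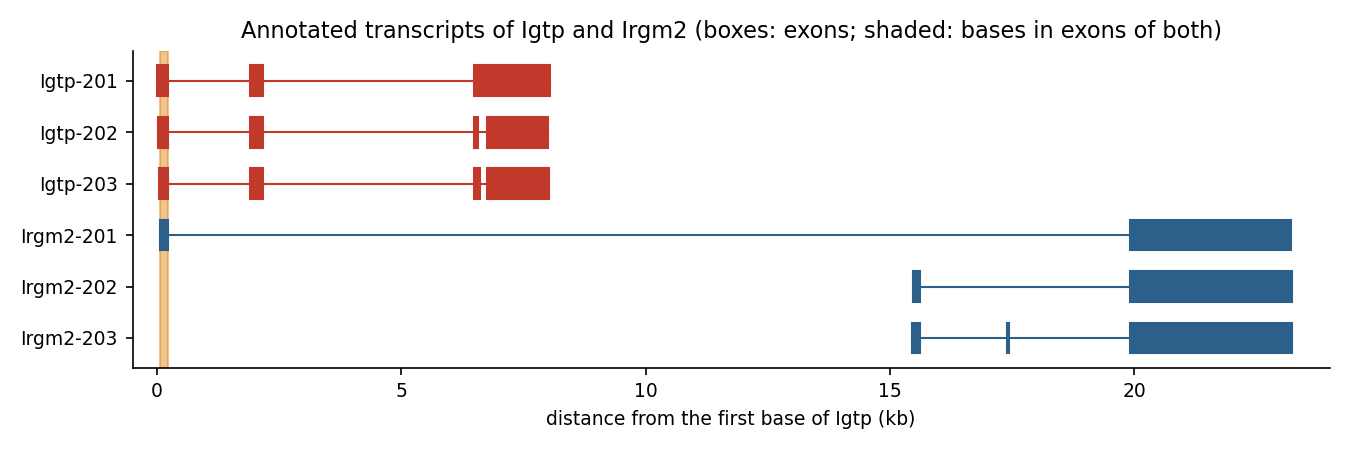
Exon structure of the annotated transcripts of Igtp and Irgm2, with distance from the start of Igtp in kilobases on the horizontal axis and 1 transcript per row. Boxes are exons and lines introns, and the shaded band is the 162-base stretch in which 1 Irgm2 transcript starts inside the first exon of Igtp.

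The 6 libraries held 15145052 to 22618802 counts (a sum over genes), and each NM1 KO library was deeper than each NM1 WT library, so that 1 CPM (counts relative to library size, scaled by trimmed mean of M-values) stood for 14.7 to 22.98 counts. Low counts were nearly all even, as when both mates of a read pair are counted. Myo1c, the gene of the deleted isoform, stood at 73.8, 59.1 and 59.7 CPM in the knockout libraries. In the wild-type libraries it stood at 89.8, 115 and 102 CPM. Every knockout library was below every wild-type library, with a log2 difference of -0.67 (SE 0.14, adjusted p = 0.0516 in edgeR's quasi-likelihood test). It passed the threshold of 0.05 in 5 of 15 alternative analyses. These counts sum all Myo1c transcripts and do not check the loss of the nuclear isoform. Y-linked transcripts (Ddx3y, Uty, Kdm5d and Eif2s3y) summed to 199 and 173 CPM in NM1 KO 1 and NM1 KO 2 and to 158 CPM in NM1 WT 2, and were at 0 in the other 3 libraries. Xist stood at 269 CPM in NM1 KO 3 and at 281 and 300 CPM in NM1 WT 1 and NM1 WT 3. In the libraries with Y-linked transcripts it was at 0.609, 0.276 and 1.16 CPM. The libraries thus read as male with and female without Y-linked transcripts, though the labels give no sex. The tissue label was checked against marrow markers: 10 neutrophil markers summed to 35257 to 60021 CPM and 7 erythroid markers to 49268 to 64752 CPM.

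Igtp and Irgm2, both regulators, were the members with the widest gap between genotypes. Igtp, also called IRGM3, stood at 112, 148 and 154 CPM in NM1 KO libraries 1, 2 and 3. In NM1 WT it stood at 46.6, 42.1 and 62.8 CPM. The lowest knockout library was thus well above the highest wild-type library, and the groups did not overlap. The means were 138 ± 22.7 and 50.5 ± 10.9 CPM (SD, n = 3 each), a log2 difference of 1.45 (SE 0.18). The raw counts behind these values were 2577, 3214 and 3286 in NM1 KO and 686, 726 and 958 in NM1 WT.

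Irgm2, which resides at the Golgi, was at 84.4, 104 and 104 CPM in NM1 KO. It was at 33.1, 28.3 and 29.3 CPM in NM1 WT. Again all knockout libraries were above all wild-type libraries, and within each group the values lay close together, with a coefficient of variation of 11.5% in NM1 KO and 8.43% in NM1 WT. The means were 97.3 ± 11.2 and 30.2 ± 2.55 CPM (SD, n = 3 each), a log2 difference of 1.69 (SE 0.14). Counts were 1940, 2248 and 2219 against 488, 488 and 447.

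Irgm1, the regulator known from blood stem cells and from defence against mycobacteria, did not share this gap. It stood at 43.5, 50.8 and 50.9 CPM in NM1 KO and at 55.0, 49.1 and 58.5 CPM in NM1 WT. The groups overlapped, since NM1 WT 2 lay below NM1 KO 2 and NM1 KO 3. The means of 48.4 ± 4.24 and 54.2 ± 4.72 CPM (SD, n = 3 each) gave a log2 difference of -0.16 (SE 0.13).

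In the test across all genes (edgeR's quasi-likelihood test with Benjamini-Hochberg adjustment at 0.05), Igtp and Irgm2 were the 2 of the 6 tested members past the threshold, both higher in NM1 KO, and 0 were past it in the lower direction. At an unadjusted p under 0.05 the count was also 2, and DESeq2 and limma-voom called Igtp and Irgm2 too, with 0 lower. Of all 15069 tested genes, 0.776% were past it with edgeR, 89 higher and 28 lower. An unadjusted p under 0.05 with edgeR was found for 2525 of the 15069, while DESeq2 called 794 and limma-voom 37. In 3 of the 6 tested members (Igtp, Irgm2 and Tgtp2) every NM1 KO library was above every NM1 WT library, an arrangement found in 10.8% of all tested genes. In 0 members was every NM1 KO library below, against 9.75% of all tested genes. As the members were selected with this contrast known, nothing is read from these shares. The median log2 difference of the tested members was 0.86, that of all tested genes 0.0019. Tgtp1 was not among the tested genes. In bulk marrow, a difference in the number of cells that express a gene cannot be told apart from a difference in RNA per cell.

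**Figure D2:**
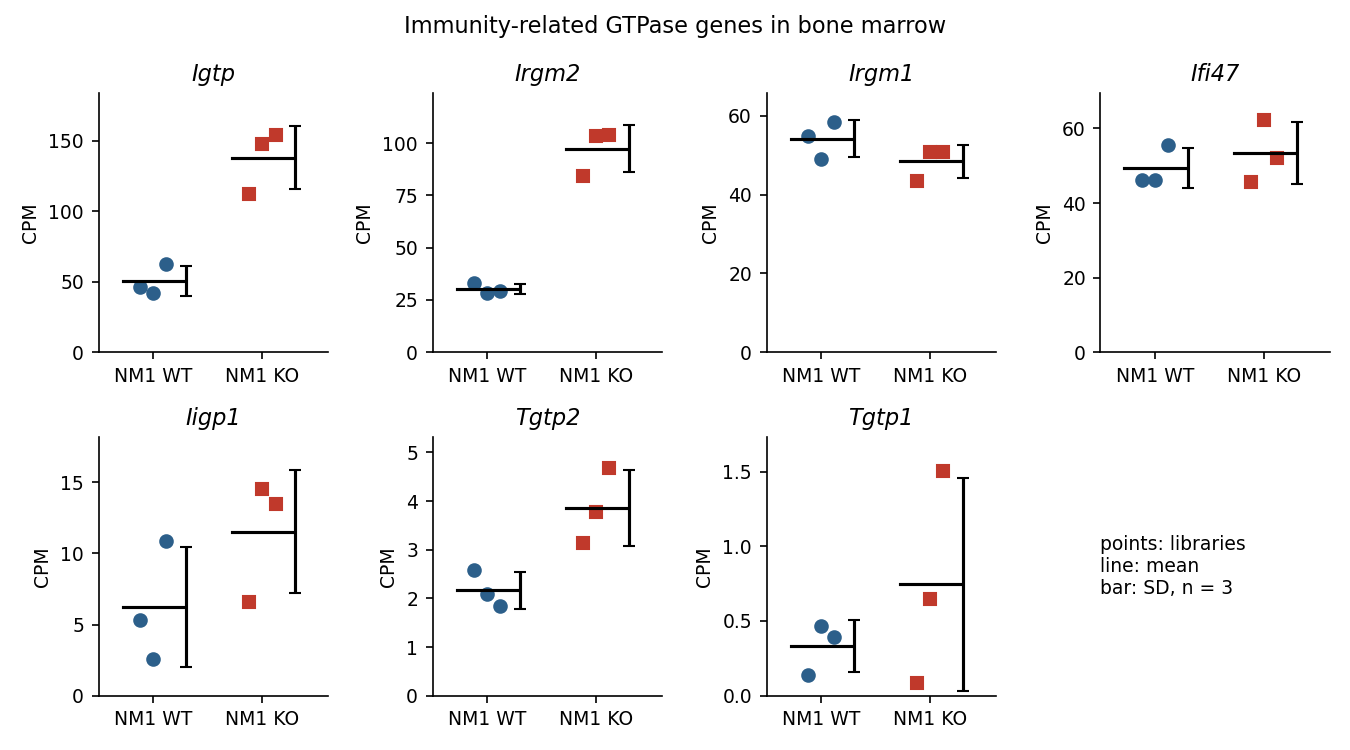
Level of each of the 7 members in each library, in CPM on a vertical axis that starts at 0 and has its own scale for each gene, with libraries as points (circles NM1 WT, squares NM1 KO), the group mean as a line and the SD (n = 3) as a bar. Igtp and Irgm2 show separate groups (138 against 50.5 and 97.3 against 30.2 CPM), whereas the points of Irgm1, Ifi47 and Iigp1 overlap.

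Ratios within a library do not depend on the scaling between libraries. For each Irgm1 count there were 2.58, 2.91 and 3.03 Igtp counts in NM1 KO and 0.847, 0.856 and 1.07 in NM1 WT. Irgm2 counts per Irgm1 count came to 1.94, 2.04 and 2.05 in the knockout and to 0.602, 0.575 and 0.501 in the wild type. Both ratios separated the genotypes, with means of 2.84 ± 0.234 against 0.926 ± 0.129 for Igtp and 2.01 ± 0.0583 against 0.560 ± 0.0525 for Irgm2 (SD, n = 3 each). Igtp relative to Irgm2 did not: knockout libraries gave 1.33, 1.43 and 1.48 and wild-type libraries 1.41, 1.49 and 2.14, where NM1 WT 3 was the highest. The effector Ifi47 relative to Irgm1 gave 1.05, 1.22 and 1.03 in knockout libraries and 0.842, 0.942 and 0.951 in wild-type ones, a much narrower separation.

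**Figure D3:**
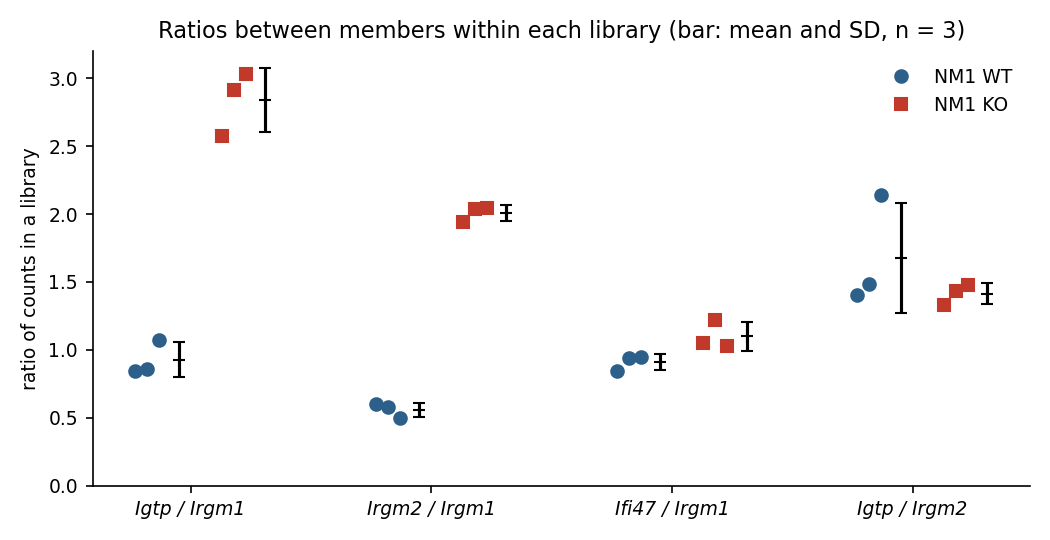
Ratio of raw counts between pairs of members within each library on the vertical axis, with libraries as points (circles NM1 WT, squares NM1 KO) and the mean with its SD (n = 3) as a bar. Igtp and Irgm2 relative to Irgm1 lie near 2.84 and 2.01 in NM1 KO and near 0.926 and 0.560 in NM1 WT, while Igtp relative to Irgm2 overlaps between genotypes.

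Among the effectors, Ifi47 (IRGD) was the most abundant and was similar in most libraries. It stood at 45.7, 62.2 and 52.2 CPM in NM1 KO and at 46.3, 46.3 and 55.6 CPM in NM1 WT. The groups overlapped, with NM1 KO 1 the lowest library of all and NM1 KO 2 the highest. The means were 53.4 ± 8.30 and 49.4 ± 5.38 CPM (SD, n = 3 each), a log2 difference of 0.11 (SE 0.15) that changed sign without NM1 KO 2, to -0.01.

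Iigp1 (IRGA6), an effector that loads onto the Toxoplasma vacuole, varied most among the tested members. It was at 6.61, 14.6 and 13.5 CPM in NM1 KO and at 5.29, 2.61 and 10.9 CPM in NM1 WT. The highest wild-type library exceeded the lowest knockout library, with a coefficient of variation of 37.3% among knockout and 67.4% among wild-type libraries. The log2 difference was 0.88 with an SE of 0.45, and it moved from 0.52 without NM1 WT 2 to 1.54 without NM1 WT 3.

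Tgtp2 and Tgtp1 encode near-identical copies of IRGB6, an effector that also loads onto the Toxoplasma vacuole. Tgtp2 was at 3.13, 3.78 and 4.69 CPM in NM1 KO and at 2.58, 2.09 and 1.84 CPM in NM1 WT. All knockout libraries lay above all wild-type libraries, by a log2 difference of 0.83 with an SE of 0.39. Tgtp1 had 2, 14 and 32 counts in NM1 KO and 2, 8 and 6 in NM1 WT. The limit that a count of 0 allows was 6 counts (3 read pairs, 0.261 to 0.407 CPM). NM1 KO 1, NM1 WT 1 and NM1 WT 3 were at or under it. NM1 KO 2, NM1 KO 3 and, with 8 counts, NM1 WT 2 were above it. The groups overlapped, and no fold is given for such low counts. Counts of both copies are uncertain because their reads are largely shared.

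Relative to merged exon length, the order of the members differed between genotypes. In NM1 KO, Igtp led with 68.3 ± 11.2 CPM per kilobase of merged exon, followed by Irgm2 with 26.4 ± 3.03 and Ifi47 with 21.6 ± 3.36 CPM per kilobase (SD, n = 3 each), and the last pair overlapped. Below them came Irgm1 with 8.33 ± 0.730, Iigp1 with 1.98 ± 0.739, Tgtp2 with 1.32 ± 0.266 and Tgtp1 with 0.232 ± 0.222 CPM per kilobase, of which Iigp1 and Tgtp2 overlapped. In NM1 WT, Igtp with 25.0 ± 5.40 and Ifi47 with 19.98 ± 2.17 CPM per kilobase overlapped at the top. Irgm1 with 9.33 ± 0.813 and Irgm2 with 8.19 ± 0.691 CPM per kilobase followed and overlapped each other. Iigp1 with 1.075 ± 0.725, Tgtp2 with 0.738 ± 0.129 and Tgtp1 with 0.103 CPM per kilobase came last, and again Iigp1 and Tgtp2 overlapped. On this scale Irgm2 thus stood beside Irgm1 in wild-type marrow, and in knockout marrow its lowest library was above the highest of Irgm1. In CPM, wild-type Irgm2 was below Irgm1, with means of 30.2 and 54.2 CPM. The merged exons join all annotated transcripts (5810 bases for Irgm1, 3690 for Irgm2). The length of the transcripts present in marrow was not measured.

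The libraries with Y-linked transcripts were unevenly spread over the groups, 2 in NM1 KO and 1 in NM1 WT, so the members were also read within each kind. Among libraries with these transcripts, the mean level in NM1 KO divided by that in NM1 WT was 3.09 for Igtp and 3.32 for Irgm2. Among those without, it was 2.82 for Igtp and 3.33 for Irgm2. For Irgm1 it was 0.960 and 0.897, and for Ifi47 1.17 and 1.02. The gap of Igtp and Irgm2 was therefore about as wide within each kind, though 1 group in each comparison held a single library. For Iigp1 the ratio was 4.06 with and 1.66 without Y-linked transcripts.

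Across the 6 libraries, Igtp and Irgm2 had a Pearson r of 0.967 (log2 CPM), and Irgm2 and Tgtp2 one of 0.930. Igtp and Irgm1 had an r of -0.37, Irgm2 and Irgm1 one of -0.52, and Ifi47 and Iigp1 one of 0.795. These are descriptions over 6 points that share the genotype split and the depth split, and Igtp and Irgm2 share an exon. Among genes of at least 10 CPM on average, those most like Igtp were Fahd1 (r = 0.992), Clca3a1 (0.992), Dcn (0.992), Gm1821 (0.990) and Mdc1 (0.990). Most like the mean of the other members were Gstm5 (0.997), Lpin2 (0.989), Isca1 (0.988), Cenpv (0.988) and Mdc1 (0.984). The 7 members were left out of both rankings beforehand. Of the genes named, Dcn encodes decorin, a matrix proteoglycan of stromal cells.

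Markers of several cell types moved with genotype beside Igtp and Irgm2. Of 8 platelet and megakaryocyte markers 7 were higher in NM1 KO in the same edgeR test, and they summed to 1676 to 3754 CPM in NM1 KO and 829 to 1091 CPM in NM1 WT. Of 7 stromal markers 4 were higher, with sums of 1190 to 2010 against 542 to 650 CPM, and of 6 skeletal muscle markers 3 were higher, with 56.3 to 71.5 against 14.5 to 23.7 CPM. All 8 platelet, 6 of 7 stromal and all 6 muscle markers had an unadjusted p under 0.05. The counts past the threshold changed when a library was left out: without NM1 WT 1 they were 0, 1 and 0, and without NM1 WT 3 they were 1, 2 and 3. Calls over all genes also fell, from 117 to 26 and 30. At an unadjusted p under 0.05 the marker counts were then 8, 6 and 6 without NM1 WT 1, and 8, 6 and 5 without NM1 WT 3. Of 7 endothelial markers 1 was higher, with 158 to 215 against 112 to 151 CPM. All 7 had a positive log2 difference and 3 an unadjusted p under 0.05, while DESeq2 called 3 as higher and limma-voom 0. Of 7 erythroid markers 0 were called by edgeR and 2 had an unadjusted p under 0.05. They summed to 58594 to 64752 CPM in NM1 KO and 49268 to 64521 CPM in NM1 WT. Cells known for strong IRG induction gave ranges that were closer: 12 T and NK cell markers summed to 149 to 171 CPM in NM1 KO and 149 to 164 CPM in NM1 WT, and 12 monocyte and macrophage markers to 1309 to 1415 and 1400 to 1602 CPM, with 1 marker higher in each list. An unadjusted p under 0.05 with edgeR was found for 2 of the T and NK cell markers and 6 of the monocyte and macrophage markers. B cell markers summed to 759 to 1061 and 747 to 942 CPM, and neutrophil markers to 35257 to 45023 and 44266 to 60021 CPM, with 0 called in either list by edgeR (5 neutrophil markers and 1 B cell marker at an unadjusted p under 0.05, 4 lower and 1 higher with DESeq2, 0 with limma-voom). No marker of the 9 lists was at 0 in all libraries. The part of these cells in the values of Igtp and Irgm2 was not tested.

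Within 1 Mb of Igtp, 32 genes were tested and 3 passed the threshold, namely Igtp, Irgm2 and the non-coding gene 2610507I01Rik, named here after its values were seen. That gene lies 0.992 Mb away and was nearly undetected in the knockout, at 0, 0.0921 and 0.375 CPM, with 10.04 to 11.4 CPM in the wild type (adjusted p = 0.00202, edgeR). Its direction was opposite to that of Igtp and Irgm2. The 3 nearest tested genes on either side did not pass. Before Igtp lie Gemin5, with a log2 difference of -0.03 (SE 0.17), Mrpl22 with -0.12 (SE 0.17) and Gm12250 with 0.40 (SE 0.35). The annotation labels Gm12250 a processed pseudogene, and it is in the list of further IRG genes read below. Beyond Irgm2 lie 4930438A08Rik with -0.42 (SE 0.24), Zfp692 with 0.41 (SE 0.18) and Zfp672 with 0.33 (SE 0.16). Their adjusted p-values ran from 0.282 to 0.951 in edgeR's quasi-likelihood test. The 30 tested genes of this window other than Igtp and Irgm2 had a median log2 difference of -0.07. In 11 of these 30 the groups did not overlap in 1 direction or the other. Over all 32 genes of the window, Igtp and Irgm2 included, that share was 40.6%, against 20.5% of all tested genes. As both were selected with this contrast known, nothing is read from this share. Of the 32 genes, 10 had an unadjusted p under 0.05 with edgeR, 8 passed with DESeq2 (3 higher, 5 lower) and 3 with limma-voom. Igtp and Irgm2 are included in each of these counts. Over all 15069 tested genes these counts were 2525, 794 and 37.

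Around the group from Irgm1 to Ifi47, 20 genes were tested within 1 Mb and 0 passed in edgeR's test (4 at an unadjusted p under 0.05, 2 lower with DESeq2 and 0 with limma-voom). Within 20 Mb of Myo1c, 14 of 504 tested genes passed, or 2.78%, with 8 higher and 6 lower. Igtp and Irgm2, selected with this contrast known, are among these 14 and among the 8 higher. On the rest of chromosome 11, which holds Irgm1, Tgtp1, Tgtp2 and Ifi47, 3 of 734 passed (0.409%), and on all other chromosomes 100 of 13782 (0.726%). With DESeq2 49 of the 504 genes (23 higher, 26 lower) and 30 of the 734 passed, and with limma-voom 9 and 1. The edgeR counts also changed when a library was left out. Without NM1 WT 1 or without NM1 WT 3, 7 genes passed near Myo1c and 0 on the rest of the chromosome, and without NM1 WT 2, 27 and 20. Calls over all genes were 26, 30 and 344 in these runs. Igtp and Irgm2 passed in each of these analyses, so every count near Myo1c includes them, and nothing is read from these shares. The difference between the shares was not tested, nor was a part of chromosomal position in the values of Igtp and Irgm2.

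**Figure D4:**
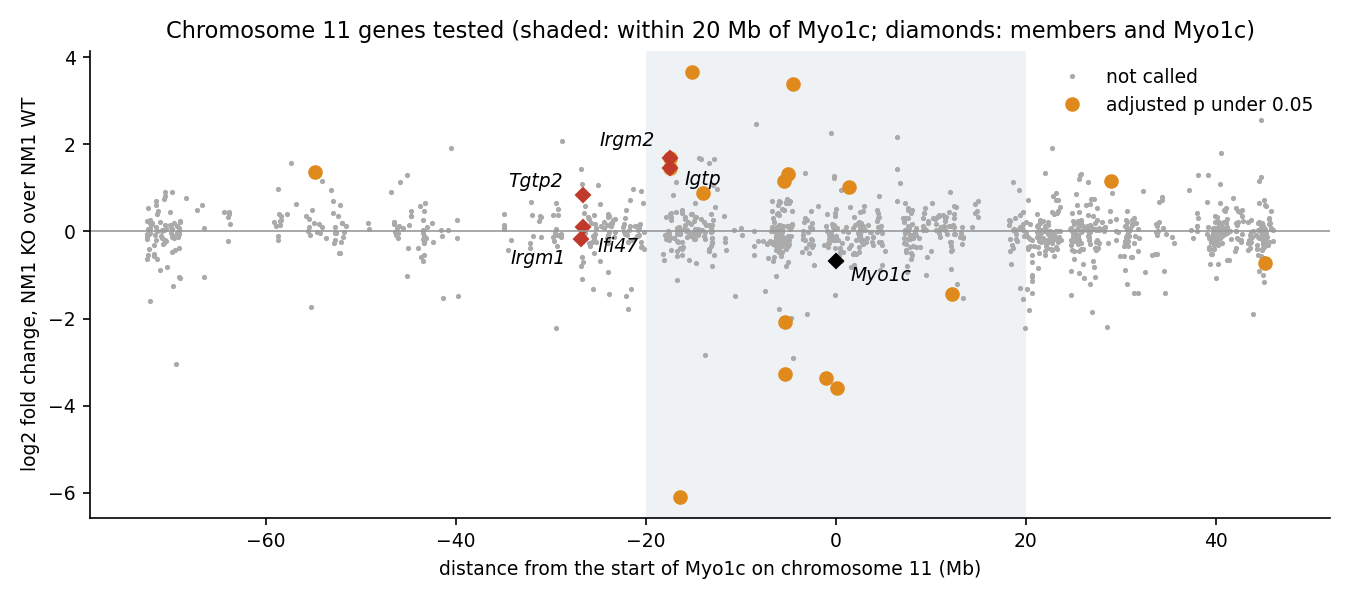
Log2 difference between NM1 KO and NM1 WT of each tested gene on chromosome 11 (vertical axis) by distance from Myo1c in megabases (horizontal axis), with members and Myo1c as diamonds, genes past the threshold as large points and the 20 Mb around Myo1c shaded. Igtp and Irgm2 lie 17.4 Mb from Myo1c at 1.45 and 1.69, and Irgm1, Ifi47 and Tgtp2 lie at 26.6 to 26.8 Mb.

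The further genes of the pathway were read by role from 7 lists, and in each list 0 genes passed in either direction in edgeR's quasi-likelihood test. limma-voom also called 0 in these lists, DESeq2 called 11, of which 10 were lower, and edgeR without NM1 WT 2 called 10, all lower. Among all 15069 tested genes, 2525 had an unadjusted p under 0.05 with edgeR, and DESeq2 called 794. Among the ligands and receptors of interferon, 6 of 13 listed genes were at 0 in all libraries, all of them ligands, and Ifng, the ligand that induces the IRG genes, reached at most 0.750 CPM and was not tested. The receptor chain Ifngr2 stood at 105, 89.3 and 82.6 CPM in NM1 KO and 114, 116 and 105 CPM in NM1 WT. Every knockout library was slightly below every wild-type library, with a log2 difference of -0.28 (adjusted p = 0.312). Ifnlr1, a receptor chain for interferon-lambda, had a log2 difference of -0.47 (SE 0.18, adjusted p = 0.218). Of the 6 tested genes of this list 1 had an unadjusted p under 0.05, and the median log2 difference was -0.16, while DESeq2 called 0.

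Between receptor and target lie the kinases, STAT proteins and interferon regulatory factors, of which 15 of 15 were tested. Their median log2 difference was -0.21, and 3 had an unadjusted p under 0.05. Jak2, a kinase bound to the interferon-gamma receptor, stood at 79.7, 96.8 and 85.0 CPM in NM1 KO and 67.1, 65.4 and 59.5 CPM in NM1 WT, without overlap (log2 difference 0.44, SE 0.13, adjusted p = 0.122). Irf9, the DNA-binding part of the type I complex ISGF3, had lower values in NM1 KO, with 93.3, 98.3 and 101 CPM against 140, 120 and 121 CPM. Its log2 difference was -0.38 (SE 0.12, adjusted p = 0.151).

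The other targets of interferon-gamma varied in both directions. Of 16 tested genes 11 had a negative and 5 a positive log2 difference, with a median of -0.17 and 5 at an unadjusted p under 0.05. Psmb8, an immunoproteasome subunit, stood at 110, 98.4 and 119 CPM in NM1 KO and 154, 138 and 163 CPM in NM1 WT. Tap2, part of the peptide transporter for antigen presentation, stood at 88.2, 72.7 and 95.7 CPM in NM1 KO and 143, 101 and 135 CPM in NM1 WT. In both genes the groups did not overlap, the log2 differences were -0.47 (SE 0.13) and -0.56 (SE 0.16), and the adjusted p-values were 0.113 and 0.120 with edgeR. With DESeq2 both passed as lower, and without NM1 WT 2 Tap2 did so with edgeR. Cxcl9 and Cd274, named after their values were seen, lay on the other side. Cxcl9, a chemokine for T cells, stood at 2.61, 11.7 and 7.78 CPM in NM1 KO and 2.58, 0.927 and 4.33 CPM in NM1 WT. The groups overlapped, and the log2 difference of 1.50 (SE 0.59, adjusted p = 0.226 with edgeR) was past the threshold in 1 of the 15 alternatives, that without the low-count filter. Cd274, the checkpoint ligand PD-L1, was at 8.57, 7.0 and 8.16 CPM in NM1 KO and 6.92, 3.59 and 5.90 CPM in NM1 WT, without overlap (log2 difference 0.53, SE 0.31, adjusted p = 0.410).

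The guanylate-binding proteins are large GTPases that act together with IRG proteins on vacuoles. Of 8 tested genes 7 had a positive log2 difference, with a median of 0.19 and 1 at an unadjusted p under 0.05. Gbp5 stood at 5.13, 9.67 and 8.91 CPM in NM1 KO and 4.21, 5.51 and 4.85 CPM in NM1 WT, with NM1 KO 1 inside the wild-type range. Its log2 difference was 0.70 (SE 0.32, adjusted p = 0.291), and that of Gbp7 was 0.29 (SE 0.18, adjusted p = 0.461). DESeq2 and limma-voom also called 0 genes of this list.

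Targets of type I interferon had the most negative median of the lists, -0.74, with 17 of 19 tested genes negative and 11 at an unadjusted p under 0.05. Oas2, a sensor of double-stranded RNA, stood at 10.6, 12.7 and 12.1 CPM in NM1 KO and 38.3, 19.5 and 19.4 CPM in NM1 WT. Oas1a of the same family stood at 6.70, 11.6 and 13.6 CPM in NM1 KO and 24.7, 18.3 and 24.4 CPM in NM1 WT. In both genes every knockout library was below every wild-type library. The log2 differences were -1.12 (SE 0.26) and -1.08 (SE 0.26), and the adjusted p-values were 0.0752 and 0.0826 with edgeR. With DESeq2, 7 genes of this list passed, all lower, and with limma-voom 0. Without NM1 WT 2, the wild-type library with Y-linked transcripts, 8 passed as lower with edgeR.

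The list of further IRG and very large GTPase genes held 11 genes, of which 7 were tested, with a median log2 difference of 0.09 and 1 at an unadjusted p under 0.05. This was 9930111J21Rik2, which stood at 40.7, 22.8 and 30.5 CPM in NM1 KO and 52.9, 39.6 and 59.4 CPM in NM1 WT. The groups overlapped, and the log2 difference was -0.69 (SE 0.22, adjusted p = 0.148 with edgeR, passed as lower with DESeq2). Log2 differences of the others were 1.07 for Gm4070 (SE 0.69), 0.40 for Gm12250, 0.32 for Gm4951 (SE 0.53), 0.09 for Irgq (SE 0.22), -0.42 for Gvin1 (SE 0.66) and -0.59 for Gm5431 (SE 0.63). Counts of Gm4070 (16, 18 and 20 in NM1 KO, 8, 4 and 6 in NM1 WT), Gvin1 (6 to 32) and Gm5431 (12 to 40) were low. NM1 WT 2 and NM1 WT 3 for Gm4070 and NM1 WT 1 for Gvin1 were at or under the limit of 6 counts, so these differences are uncertain. Gm12185, 9930111J21Rik1, F830016B08Rik and Irgc1 were below the filter. Gm5431, 9930111J21Rik2, Gm12185 and 9930111J21Rik1 lie on chromosome 11 beside Irgm1 and Tgtp1.

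The autophagy conjugation genes are needed for effector loading onto vacuoles. All 10 were tested, with a median log2 difference of -0.01 and 2 at an unadjusted p under 0.05. Gabarapl1 stood at 26.3, 40.9 and 28.6 CPM in NM1 KO and 17.7, 21.7 and 19.8 CPM in NM1 WT, without overlap (log2 difference 0.69, SE 0.19, adjusted p = 0.116 with edgeR, passed as higher with DESeq2). Atg7 stood at 57.8, 59.5 and 65.0 CPM in NM1 KO and 82.7, 75.4 and 70.7 CPM in NM1 WT, also without overlap (log2 difference -0.33, SE 0.12, adjusted p = 0.213).

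**Figure D5:**
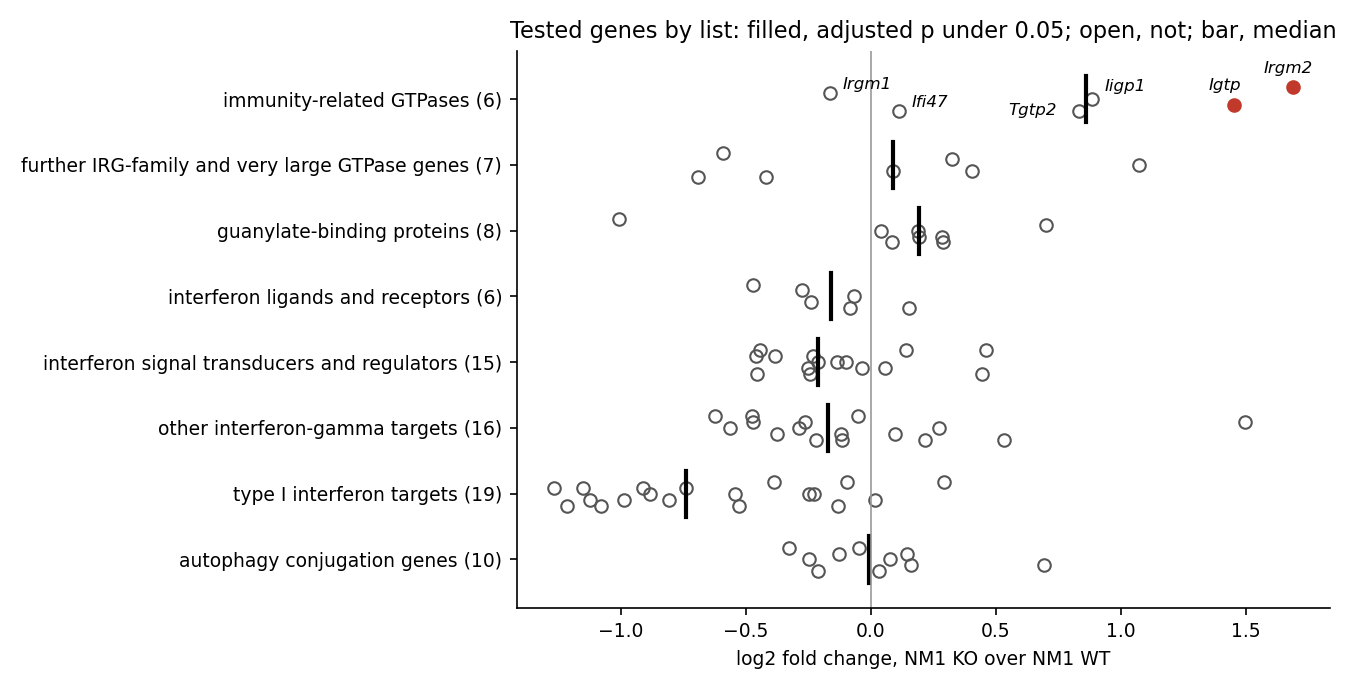
Log2 difference between NM1 KO and NM1 WT (horizontal axis) of every tested gene in the list of members and in the 7 lists of further pathway genes (rows), with each list's median as a vertical mark and genes past the threshold filled. Medians run from -0.74 for type I interferon targets to 0.86 for the members, in which Igtp (1.45) and Irgm2 (1.69) are the genes past the threshold.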

How the data were processed

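RNA of 3 NM1 KO and 3 NM1 WT bone marrow samples, each from 1 mouse, was analysed. The deposited values are raw counts per Ensembl gene; per the submitters' processing notes the authors' tools were HISAT2 2.0.4, HTSeq, Trimmomatic 0.36, SAMtools 0.1.19 and FastQC, with GRCm38/mm10. The sources used here do not state the annotation release, strand setting or counting mode. Symbols and exon lengths came from GENCODE M21, which matched 46005 of 46603 identifiers, and promoters from RefSeq.

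Counts were scaled by TMM, filtered with filterByExpr and tested with edgeR 4.0.16 (quasi-likelihood, Benjamini-Hochberg over 15069 genes, threshold 0.05) in R 4.3.3. SEs were the log2 difference divided by the root of the F statistic. Log2 CPM used a pseudocount of 0.1. On simulated counts (14676 genes) 53% of 2-fold and 75% of 4-fold changes were recovered, with 9 false calls among 137. Alternatives used DESeq2 1.42.0, limma 3.58.1, other scalings, no filter, halved counts, a replicate block, a covariate for Y-linked transcripts and libraries left out. Depth was 15145052 to 22618802 counts per library.

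The members, the pathway lists and the marker lists were chosen with earlier results of these data known. Named genes were the members, Myo1c, all further IRG genes measured, the 2 genes with the smallest p of each other pathway list (none of which had 2 genes past the threshold), the 3 tested genes on either side of the Igtp and Irgm2 pair, and the 5 genes most like Igtp or most like the mean of the other members. Ifng, Cxcl9, Cd274 and 2610507I01Rik were named outside this rule, after their values were seen.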

Additional observations from a re-analysis of the deposited data

How the results depend on the processing

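Igtp and Irgm2 were called higher in NM1 KO in all 15 alternatives, the 1 chosen after seeing the data (scaling without genes within 20 Mb of Myo1c, 120 genes called) included. The log2 difference ran from 1.34 to 1.63 for Igtp and from 1.63 to 1.78 for Irgm2. Irgm1 ran from -0.22 to -0.09, Iigp1 from 0.52 to 1.54 and Tgtp2 from 0.67 to 0.98, called in 0 alternatives. Ifi47 was between -0.0100, without NM1 KO 2, and 0.21. Tgtp1 was called in 0 of the 5 alternatives whose filter let it pass.

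The number of genes called depended on the method, from 117 to 1138 without the low-count filter (621 higher, 517 lower), 794 with DESeq2 (400 higher, 394 lower), 60 with a covariate for Y-linked transcripts and 37 with limma-voom. Leaving out 1 library gave 26 (without NM1 WT 1) to 344 (without NM1 WT 2). Of the 7 pathway lists, 0 genes were called in the main analysis, 17 without the filter, 11 with DESeq2 and 0 to 10 when a library was left out, the 10 without NM1 WT 2 and all lower. The cause was not tested.

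Replicate numbers gave no pairing in the labels, and same-numbered libraries deviated together only weakly (r = 0.063, 0.115 and 0.061), though each correlated best with its own number. With the replicate block 421 genes were called (229 higher, 192 lower), and 4 genes of the pathway lists, all lower. Depth limits Tgtp1, which had 2 to 32 counts per library, and 3 mice per genotype limit the precision of all values.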
